A study of Homo sapiens with 24 samples.

Results

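The 10 genes described here encode receptors that plasma cells and other leukocytes use to reach, adhere to and leave the bone marrow. They are CXCR4, CD44, ITGA4, ITGB1, ITGAL, ITGB2, ICAM1, SELPLG, S1PR1 and CCR1. They were chosen by gene symbol, and each symbol matched 1 row of a table of 19158 genes. RNA had been sequenced from ARP1, a human multiple myeloma line, that is, a cultured cancer of antibody-secreting plasma cells. The LPA group was cultured with LPA for 24 h and the PBS group with PBS, the vehicle, for the same time. LPA is taken as lysophosphatidic acid, a signalling lipid, although the labels give only the abbreviation. They write its dose as 4 mg/mL, a unit that is in doubt. Each group had 3 libraries, read in 4 lanes each, and the mean of the lanes was used as 1 value per library. All libraries came from the same line, and nothing in the labels says that they came from separate cultures. The p-values therefore measure only the spread between these libraries, which the test partly shares across genes. That spread may be technical.

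Myeloma cells lodge in the marrow through several steps. The chemokine receptor CXCR4 senses CXCL12 made by marrow stroma. PSGL-1, the product of SELPLG, lets cells roll on selectins, while CD44 binds hyaluronan. Integrins are pairs of an alpha and a beta chain. ITGA4 with ITGB1 forms VLA-4, which binds VCAM1 and fibronectin. ITGAL with ITGB2 forms LFA-1, whose ligands include ICAM1. S1PR1 senses sphingosine 1-phosphate in blood and guides lymphocytes out of tissue, and CCR1 is a receptor for the chemokines CCL3 and CCL5.

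Values are in FPM, fragments scaled to a fixed total per lane. Each log2 fold change divides LPA by PBS and was taken on log2(FPM + 1). Library totals were between 6941747 and 8740992 reads in the LPA group and between 5498910 and 5615625 in the PBS group, so that 1 read was worth between 0.114 and 0.182 FPM. The log2 fold change of the median gene was 0.13. Members are therefore also given on FPM rescaled so that the median gene is level between libraries (median-of-ratios size factors). Within each group 1 library, PBS 2 or LPA 3, differed more from the other libraries than those did from each other. The chi-square per degree of freedom against PBS 2 was 3.97 and 4.05, against 1.36 between PBS 1 and PBS 3. Against LPA 3 it was 2.51 and 2.98, and 1.37 between LPA 1 and LPA 2. PBS 2 held the highest FPM of its group for all 10 members, and for 5 of them on rescaled FPM. The line was checked against markers. All 10 plasma cell markers were listed, with a summed level of 2757 to 2937 FPM in LPA libraries and 1710 to 1873 FPM in PBS libraries. With LPA, 8 of the 10 were called higher (limma adjusted p below 0.05), as were 22.5% of all tested genes. The marker count was 7 on rescaled FPM and 7 when any 1 library was left out. JCHAIN was the largest part of the summed level, at a mean of 1379 FPM with LPA and 754 FPM with PBS. MZB1 was low, at 4.89 FPM with LPA and 3.07 FPM with PBS. So was CD38, at 5.95 FPM with LPA and 7.28 FPM with PBS. These markers were named after their values were seen. Markers of other cells summed to lower levels. The 4 of 6 B cell markers listed summed to 18.9 to 20.2 FPM in LPA libraries and 13.9 to 16.0 FPM in PBS libraries, with MS4A1 not listed. The 8 of 9 T and NK cell markers listed summed to 32.6 to 36.6 FPM in LPA libraries and 24.9 to 31.8 FPM in PBS libraries, mostly from KLRD1. The 5 of 9 stromal and endothelial markers listed summed to 18.5 to 23.4 FPM in LPA libraries and 20.8 to 30.0 FPM in PBS libraries. The 3 of 8 monocyte and macrophage markers listed summed to 2.88 to 6.98 FPM in LPA libraries and 3.62 to 5.17 FPM in PBS libraries. The part of the plasma cell marker shift in the members' changes was not tested. In bulk RNA, fewer cells of a kind and less RNA per cell cannot be told apart.

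By limma, with an adjusted p below 0.05 as the threshold, CXCR4, S1PR1, CD44, ITGB1 and ITGA4 were higher with LPA and ICAM1 was lower. ITGAL, SELPLG and CCR1 did not pass, and ITGB2 had too few reads to be tested. Thus 5 of 9 tested members were higher and 1 lower. Of all 16274 tested genes, 27.0% passed, 22.5% as higher and 4.49% as lower. The member median was 0.24 on the log2 scale, against 0.13 for all tested genes. On rescaled FPM, CXCR4, S1PR1 and CD44 were higher and ICAM1, CCR1 and SELPLG lower. Of all genes, 19.2% then passed, 1633 as higher and 1497 as lower. Without PBS 1, 3 members were called higher on FPM and 2 lower, and of 16050 genes then tested 2745 were higher and 616 lower. Calls shared by both scalings were those of CXCR4, S1PR1, CD44 and ICAM1. The 3 LPA libraries lay all above the 3 PBS libraries for 4 members and all below for 1, where 31.4% and 7.42% of tested genes did so.

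**Figure D1:**
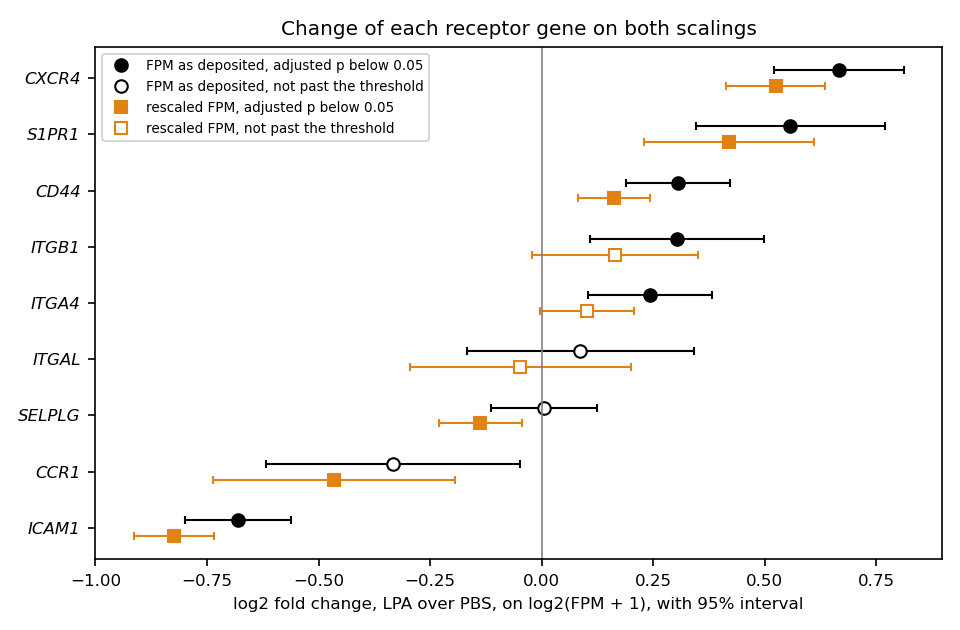
Log2 fold change of LPA over PBS (x axis) of the 9 tested receptor genes on FPM as deposited (circles) and rescaled FPM (squares), with 95% intervals. CXCR4, S1PR1, CD44 and ICAM1 are filled on both, and the rescaled values sit lower for all 9.

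**Figure D2:**
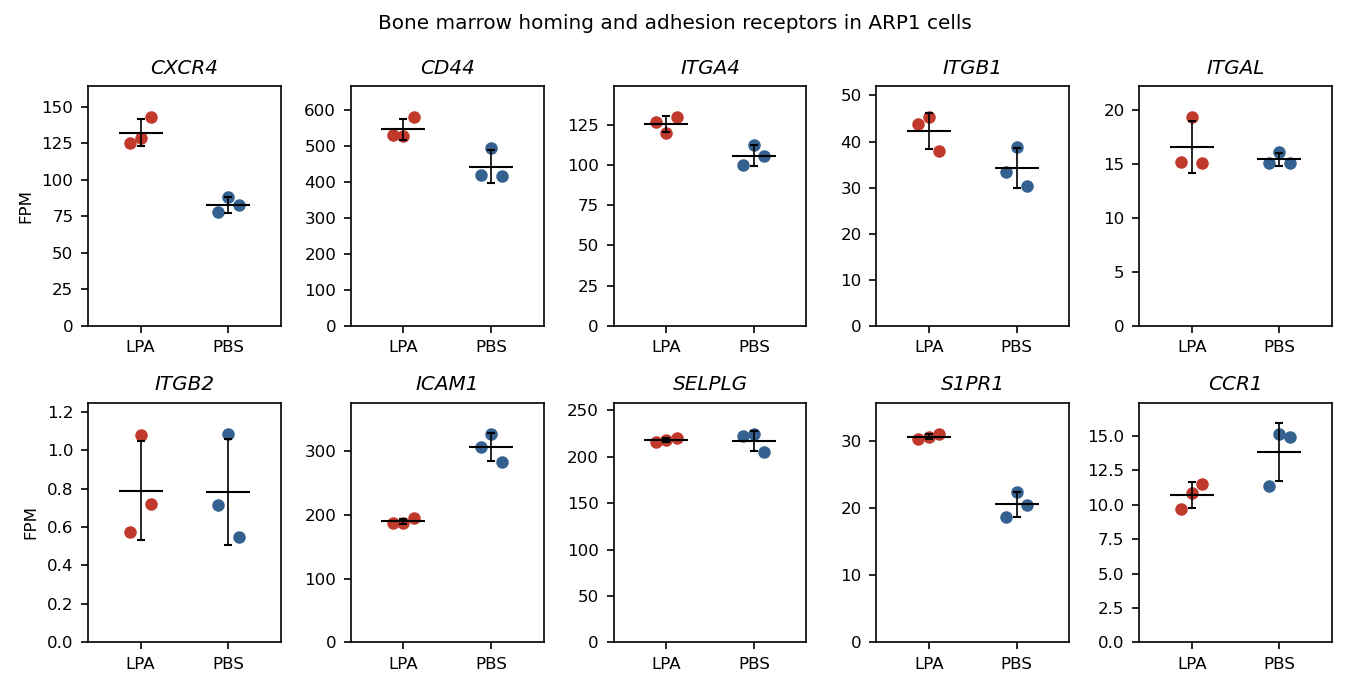
FPM of each of the 10 receptor genes (y axis, from 0, its own scale per panel) in the 3 LPA and 3 PBS libraries (points), with the mean and SD as bars. The groups are apart for CXCR4, CD44, ITGA4, S1PR1 and ICAM1 and overlap for the others.

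CXCR4 (ENSG00000121966), the G protein-coupled receptor for CXCL12, had the largest rise among the members. It stood at 124.9, 128.9 and 142.7 FPM in the LPA libraries, against 77.7, 88.4 and 82.5 FPM in the PBS libraries. Every LPA library was above every PBS library, and the gap between the groups was wider than the range within either. The mean was 132 ± 9.36 FPM with LPA and 82.9 ± 5.36 FPM with PBS (SD, n = 3 each), which is 59.5% higher with LPA. On the log2 scale the change was 0.67 (SE 0.07, limma adjusted p = 2.97e-10). It was 0.52 on rescaled FPM (limma adjusted p = 7.45e-09). The ratio of means taken in each lane on its own ranged from 1.53 to 1.63. Without PBS 2 the log2 fold change was 0.71, and without LPA 3 it was 0.61.

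Of the ligands and partners in the CXCR4 system, CXCL12 itself is not listed in the table. MIF, a cytokine that also binds CXCR4, was higher with LPA, at 72.1, 65.0 and 73.2 FPM, against 48.2, 48.9 and 46.6 FPM with PBS (log2 fold change 0.54, limma adjusted p = 1.04e-06). Here too the groups did not overlap. CD74, another surface receptor of MIF, averaged 217 ± 1.22 FPM with LPA and 205 ± 21.3 FPM with PBS, and did not pass (log2 fold change 0.08, limma adjusted p = 0.356).

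S1PR1 (ENSG00000170989), the egress receptor for sphingosine 1-phosphate, was the member with the next largest rise. Its values were 30.3, 30.6 and 31.1 FPM with LPA, against 18.7, 22.4 and 20.6 FPM with PBS. The LPA libraries lay close together and above all PBS libraries. The mean was 30.7 ± 0.397 FPM with LPA and 20.6 ± 1.87 FPM with PBS, a ratio of 1.49. The change on the log2 scale was 0.56 (SE 0.11, limma adjusted p = 4.99e-05) and 0.42 on rescaled FPM (limma adjusted p = 0.00123). It was 0.62 without PBS 2 and 0.55 without LPA 3. Libraries held 105 to 265 reads of this gene, and on lane 2 or lane 4 alone the call was lost, with log2 fold changes of 0.37 and 0.44 and limma adjusted p-values of 0.24 and 0.138.

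The other receptors of this lipid differed in level and in call. S1PR2 averaged 38.7 ± 1.89 FPM with LPA and 33.0 ± 3.11 FPM with PBS and did not pass (log2 fold change 0.23, limma adjusted p = 0.0719). S1PR3 was near the floor, at 1.48, 2.16 and 2.88 FPM with LPA and 0.534, 0.903 and 1.27 FPM with PBS. Its call as higher (log2 fold change 0.73, limma adjusted p = 0.0246) was lost without PBS 1, LPA 2 or LPA 3, at 0.58, 0.72 and 0.57, and on rescaled FPM, at 0.65. S1PR4 and S1PR5 are not listed in the table. SGPL1, the lyase that breaks down sphingosine 1-phosphate, was higher at 39.6 FPM with LPA and 29.3 FPM with PBS (log2 fold change 0.43, limma adjusted p = 0.000665). SPHK2, a kinase that makes the lipid, had 15.2, 18.9 and 25.8 FPM with LPA and averaged 14.3 ± 0.428 FPM with PBS (log2 fold change 0.42, limma adjusted p = 0.0157), a call lost on rescaled FPM. Both were named after their values were seen.

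ICAM1 (ENSG00000090339), an immunoglobulin-family adhesion protein and a well-known NF-kappaB target, was the only member called lower on FPM. Its values were 188, 188 and 194 FPM with LPA, against 307, 327 and 283 FPM with PBS. All LPA libraries were below all PBS libraries, and the LPA libraries spanned a narrower range. The mean was 189.9 ± 3.85 FPM with LPA and 306 ± 21.8 FPM with PBS, a ratio of 0.621. On the log2 scale the change was -0.68 (SE 0.06, limma adjusted p = 3.20e-13) and -0.82 on rescaled FPM (limma adjusted p = 9.86e-16). It was -0.63 without PBS 2 and -0.70 without LPA 3. The deposited counting may not separate strands, and a pair of annotated antisense genes overlap ICAM1 exons. Neither is listed in the table. Genes on the opposite strand also overlap exons of CD44, ITGB1 and ITGAL, and none of those is listed either.

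None of ICAM2 to ICAM5, the other intercellular adhesion molecules, was called lower on FPM. ICAM3 was higher, at 56.3, 58.0 and 53.8 FPM with LPA and 49.7, 48.6 and 40.9 FPM with PBS (log2 fold change 0.27, limma adjusted p = 0.016), a call that was lost on rescaled FPM. ICAM5 averaged 28.6 ± 6.15 FPM with LPA and 32.3 ± 2.35 FPM with PBS (log2 fold change -0.18, limma adjusted p = 0.228), and passed as lower on rescaled FPM at -0.32. ICAM2 and ICAM4 did not pass on either scale. ICAM4 and ICAM5 are the next genes after ICAM1 on its chromosome in RefSeq. On its other side MRPL4, a mitochondrial ribosomal protein gene, was higher (log2 fold change 0.38, limma adjusted p = 0.00083). The difference in change between ICAM1 and its neighbours was not tested. Over all members, 36 of 40 neighbouring protein-coding genes, up to a pair on each side, were tested, and 10 were called higher and 1 lower. Among all tested genes, 22.5% were called higher and 4.49% lower.

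The promoters of ICAM1 and CXCR4 are shown because these genes had the largest changes, in opposite directions. Capitals mark matches to GGANNTNCC, a pattern that NF-kappaB sites can hold, and to TTCNNNGAA, the STAT element, where N is any base and either strand counts. Each runs from 250 bases before to 50 bases after a RefSeq start, on GRCh38.p14. The ICAM1 promoter is chr19:10270870-10271169, plus strand, with a pattern of the first kind starting at -186 and the STAT pattern at -75. RefSeq gave 3 promoters for CXCR4. The CXCR4 promoter shown is promoter 1, chr2:136118100-136118399, minus strand. Its GGANNTNCC matches start at -230 and -218, the one at -218 on the opposite strand. CXCR4 promoter 3, chr2:136116186-136116485, held no match to either pattern.
ICAM1: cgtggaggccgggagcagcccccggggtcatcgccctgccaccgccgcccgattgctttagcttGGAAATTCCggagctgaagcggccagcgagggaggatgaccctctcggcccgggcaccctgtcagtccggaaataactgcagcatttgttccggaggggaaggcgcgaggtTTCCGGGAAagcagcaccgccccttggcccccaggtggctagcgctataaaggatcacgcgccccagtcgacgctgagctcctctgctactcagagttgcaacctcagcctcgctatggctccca
CXCR4: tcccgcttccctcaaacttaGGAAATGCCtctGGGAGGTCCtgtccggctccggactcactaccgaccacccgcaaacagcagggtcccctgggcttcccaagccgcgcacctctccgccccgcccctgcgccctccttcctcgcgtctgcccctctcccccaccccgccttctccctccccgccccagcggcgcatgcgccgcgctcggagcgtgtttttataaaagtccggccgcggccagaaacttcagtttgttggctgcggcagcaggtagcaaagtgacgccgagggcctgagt

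The matches do not overlap each other. Of 35116 promoters of this length in the RefSeq table, 16.1% held GGANNTNCC, 7.66% TTCNNNGAA and 8.11% GAAANNGAA, the interferon response pattern. The table held 10 promoters of 7 members, CXCR4, CD44, ITGA4, ITGB1, ICAM1, S1PR1 and CCR1. GGANNTNCC occurred in 3 of the 10, of ICAM1 and, in a pair of overlapping windows, of CXCR4. TTCNNNGAA occurred in 2, of ICAM1 and CCR1, and GAAANNGAA in 0. These are matches of letters and not known sites.

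CD44 (ENSG00000026508), the hyaluronan receptor, had the most reads of the members, 2285 to 4640 per library. It stood at 531, 529 and 580.1 FPM with LPA, against 419, 495 and 416 FPM with PBS. PBS 2 lay much nearer to the LPA libraries than did PBS 1 and PBS 3, yet below all of them. The mean was 547 ± 28.9 FPM with LPA and 443 ± 45.1 FPM with PBS, a ratio of 1.23. The log2 fold change was 0.31 (SE 0.06, limma adjusted p = 0.0001) and 0.16 on rescaled FPM (limma adjusted p = 0.00306). It was 0.39 without PBS 2 and 0.26 without LPA 3, and the call was lost with 1 prior variance for all genes (limma adjusted p = 0.0876). HMMR, another hyaluronan receptor that also acts at the mitotic spindle, was higher at 56.5 ± 2.29 FPM with LPA and 38.6 ± 4.00 FPM with PBS (log2 fold change 0.54, limma adjusted p = 4.58e-06). HAS3, a hyaluronan synthase, averaged 7.81 FPM with LPA and 7.74 FPM with PBS and did not pass.

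The chains of VLA-4 were both called higher on FPM and neither on rescaled FPM. ITGA4 (ENSG00000115232) had 127, 119.8 and 129.7 FPM with LPA, against 99.7, 112 and 106 FPM with PBS. Its groups did not overlap, but the gap was narrow, since LPA 2 and PBS 2 were close. The mean was 125 ± 5.09 FPM with LPA and 106 ± 6.25 FPM with PBS, a ratio of 1.19. The log2 fold change was 0.24 (SE 0.07, limma adjusted p = 0.00582). On rescaled FPM it was 0.10, with a 95% interval of -0.0041 to 0.21 (limma adjusted p = 0.186), and without PBS 1 it was 0.20 (limma adjusted p = 0.0526). The call was also lost with 1 prior variance, and on lanes 3 and 4 taken alone, where the change was 0.17 on each.

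ITGB1 (ENSG00000150093), the beta chain shared by many integrins, had 43.8, 45.3 and 37.9 FPM with LPA, against 33.3, 38.9 and 30.4 FPM with PBS. Its groups overlapped, because LPA 3 was below PBS 2. The change was 0.30 on the log2 scale (SE 0.10, limma adjusted p = 0.0154) and 0.16 on rescaled FPM (limma adjusted p = 0.231). The call was lost without PBS 1, PBS 3, LPA 1 or LPA 2, at 0.29, 0.22, 0.28 and 0.25. It was also lost with 1 prior variance and on lanes 1, 2 and 3 taken alone.

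The chains of LFA-1 differed in level and neither was called. ITGAL (ENSG00000005844) had 15.2, 19.3 and 15.1 FPM with LPA, against 15.1, 16.1 and 15.1 FPM with PBS. LPA 2 stood above the rest and the other 5 libraries lay close together. Its log2 fold change was 0.09, with a 95% interval of -0.17 to 0.34 (limma adjusted p = 0.666). On rescaled FPM it was -0.05, and without LPA 2 it was -0.02. ITGB2 (ENSG00000160255) had 0.573, 1.08 and 0.72 FPM with LPA and 0.715, 1.08 and 0.546 FPM with PBS. That is 3 to 8 reads per library, and an antisense gene, ITGB2-AS1, overlaps it and averaged 0.473 FPM with LPA and 0.421 FPM with PBS. ITGB2 was not tested.

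Levels of different genes were compared as FPM per kilobase of the principal transcript in GENCODE release 29. SELPLG was the highest of the members, at 96.6 ± 0.953 FPM per kb with LPA and 96.4 ± 4.87 with PBS. With LPA the order after it was CD44 at 95.4, CXCR4 at 69.8, ICAM1 at 58.4, ITGA4 at 30.0, ITGB1 at 11.2, S1PR1 at 10.5, CCR1 at 3.92, ITGAL at 3.18 and ITGB2 at 0.248. With PBS, ICAM1 was next after SELPLG at 94.0, followed by CD44 at 77.3 and CXCR4 at 43.7. The rest kept the order they had with LPA, from ITGA4 at 25.3 to ITGB2 at 0.246. Libraries overlapped between SELPLG and CD44, ITGB1 and S1PR1, and CCR1 and ITGAL with LPA, and between SELPLG and ICAM1 with PBS. CXCR4 thus stood above ICAM1 in LPA libraries and below it in PBS libraries. With the length of all merged exons instead, CXCR4 was above CD44 with LPA, and S1PR1 was below CCR1 with PBS.

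ITGA4 was the most abundant of 25 integrin subunits listed, per kilobase. The ratio of ITGA4 to ITGB1 per kilobase was 2.70 ± 0.357 with LPA and 2.82 ± 0.286 with PBS (SD, n = 3 each), and the groups overlapped. That of ITGAL to ITGB2 was 13.3 ± 2.66 with LPA and 12.9 ± 3.90 with PBS, resting on the few ITGB2 reads above. ITGB7, the other beta chain that pairs with ITGA4, stood in FPM at 23.6, 25.1 and 27.8 with LPA and 20.6, 16.4 and 18.0 with PBS, with no overlap (log2 fold change 0.45, limma adjusted p = 0.00179, and 0.32 on rescaled FPM, where it also passed). ITGA4 over ITGB7 per kilobase was 3.38 ± 0.269 with LPA and 4.00 ± 0.682 with PBS, and the groups overlapped. ITGAM and ITGAX, alpha chains that pair with ITGB2, were at 0.164 and 1.42 FPM per kb with LPA and 0.394 and 1.08 with PBS.

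**Figure D3:**
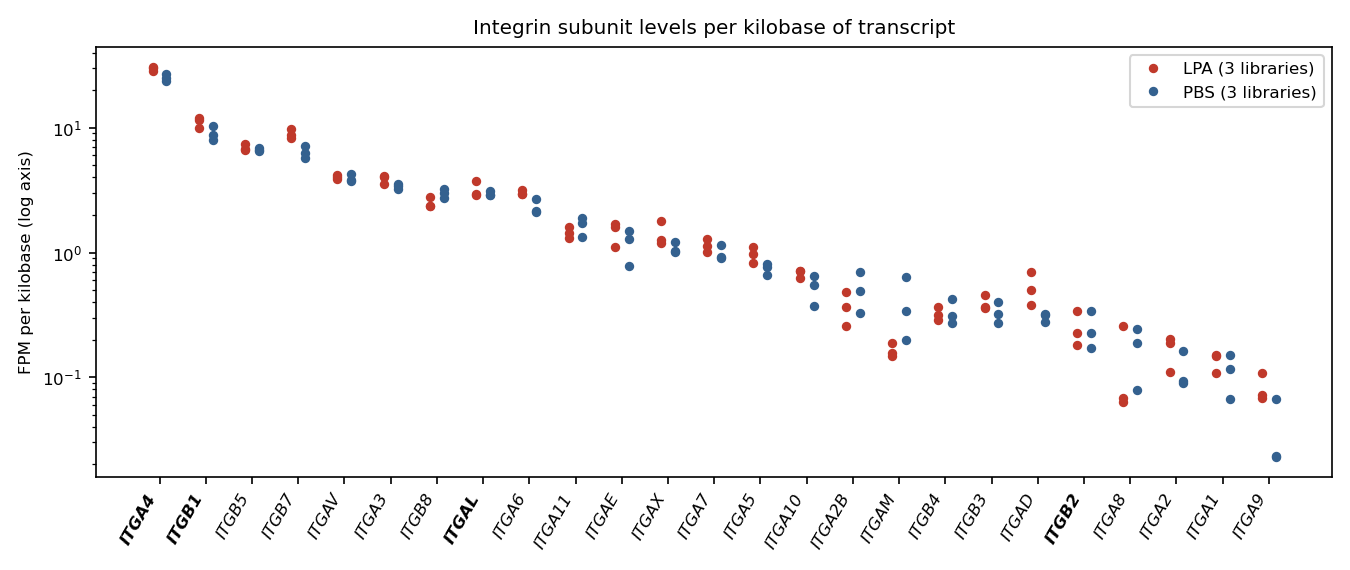
FPM per kilobase of principal transcript (y axis, log scale) of the 25 listed integrin subunits in the 3 LPA and 3 PBS libraries (points), sorted by the PBS mean, with the receptor genes described here in bold. ITGA4 leads in both groups, and ITGB2 is far below ITGAL.

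Of 19 tested integrin subunits outside the members, 2 were higher, 0 lower and 17 did not pass (median log2 fold change 0.17), against 1 higher and 1 lower on rescaled FPM. For all tested genes the shares were 22.5% higher and 4.49% lower, and 19.2% passed on rescaled FPM. Besides ITGB7 the called subunit was ITGA6, a laminin-binding chain, at 16.9 ± 0.732 FPM with LPA and 13.0 ± 1.88 FPM with PBS (log2 fold change 0.36). Its call was lost on rescaled FPM and without any 1 library other than PBS 2, so the count was then 1. ITGB8 averaged 21.9 ± 1.99 FPM with LPA and 26.1 ± 2.11 FPM with PBS (log2 fold change -0.24, limma adjusted p = 0.0898), and was lower on rescaled FPM at -0.38. Of 22 genes of integrin activation and focal adhesion, 3 were higher, 0 lower and 19 did not pass (median log2 fold change 0.12). On rescaled FPM 1 was higher and 2 were lower, FERMT2 at -0.31 and RAP1A at -0.28, both named after their values were seen. ITGB1BP1, which binds the tail of ITGB1, had 56.9 ± 6.26 FPM with LPA and 43.4 ± 2.12 FPM with PBS (log2 fold change 0.38), and held on rescaled FPM. VAV1, a guanine nucleotide exchange factor, and the adaptor LIMS1 rose by 0.30 and 0.24, calls lost on rescaled FPM and, for VAV1 without LPA 3 and for LIMS1 without LPA 2, at 0.24 and 0.22. The count of higher genes was 5 without PBS 2.

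SELPLG (ENSG00000110876) had like means in both groups on FPM. It stood at 216, 218 and 220.0 FPM with LPA and 223, 225 and 205 FPM with PBS, with the LPA libraries inside the PBS range. Its log2 fold change was 0.0049, with a 95% interval of -0.11 to 0.12 (limma adjusted p = 0.965). On rescaled FPM the means were 207 ± 6.65 with LPA and 228 ± 10.6 with PBS, and SELPLG was called lower at -0.14 (limma adjusted p = 0.0308). That call was not made by edgeR (adjusted p = 0.0549) or DESeq2 (adjusted p = 0.121). On FPM the sign also turned, to -0.0375 without PBS 3, -0.0020 without LPA 3 and -0.0090 on lane 3 alone. Of 17 tested genes that build selectin ligands or related glycans, 5 were higher, 0 lower and 12 did not pass (median log2 fold change 0.18). On rescaled FPM 2 were higher and 0 lower, with a median of 0.03. All tested genes were higher in 22.5% and lower in 4.49% of cases, and 19.2% passed on rescaled FPM. FUT8, the core fucosyltransferase, had 66.8 ± 2.63 FPM with LPA and 47.0 ± 5.03 FPM with PBS (log2 fold change 0.50, limma adjusted p = 8.26e-06). GALNT1, which starts O-glycans, had 73.2 ± 0.992 FPM with LPA and 55.4 ± 3.99 FPM with PBS (log2 fold change 0.40), and both held on rescaled FPM. C1GALT1C1, the chaperone of the core 1 O-glycan synthase, rose by 0.48, a call lost on rescaled FPM and without PBS 2, PBS 3, LPA 2 or LPA 3, at 0.42, 0.46, 0.46 and 0.44. Without single libraries the count of higher genes ranged from 2, without PBS 3 or LPA 3, through 3, without PBS 1, LPA 1 or LPA 2, to 7, without PBS 2. FUT7, which completes the selectin-binding sugar in leukocytes, is not listed in the table.

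CCR1 (ENSG00000163823), the receptor for CCL3 and CCL5, was called lower under some settings only. It had 9.72, 10.9 and 11.5 FPM with LPA and 11.4, 15.2 and 14.9 FPM with PBS. The groups overlapped by a small margin, as PBS 1 was below LPA 3. Its log2 fold change was -0.33 (SE 0.14, limma adjusted p = 0.0742), with a 95% interval of -0.62 to -0.05. On rescaled FPM it was -0.46 and called lower (limma adjusted p = 0.0116), and the groups did not overlap. It was also called lower by edgeR (-0.52, adjusted p = 0.0125) and not by DESeq2 (adjusted p = 0.0648). On FPM it was called lower without PBS 1 (-0.46, limma adjusted p = 0.0252). Libraries held 64 to 85 reads of it.

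Both CCL5 and CCL3, chemokines that bind CCR1, fell with LPA. CCL5 stood at 5.60, 5.24 and 4.90 FPM with LPA, against 35.3, 38.7 and 36.2 FPM with PBS (log2 fold change -2.59, limma adjusted p = 7.96e-23). CCL3 stood at 657, 669.6 and 714 FPM with LPA, against 991, 1017 and 1007 FPM with PBS (log2 fold change -0.56, limma adjusted p = 1.81e-14). Neither had overlapping groups. CCL3 has near-identical copies, so its value is uncertain. Of 14 tested ligands and counter-receptors of the members, 6 were higher, these 2 were lower and 6 did not pass (median log2 fold change 0.17). On rescaled FPM 2 were higher and 3 lower, with a median of 0.03. The shares of all tested genes were 22.5% higher and 4.49% lower, and 19.2% passed on rescaled FPM. Besides MIF, HMMR and ICAM3, the higher ligands and counter-receptors included FN1 (fibronectin) and F11R at 0.51 and 0.31. These 2 were named after their values were seen, and neither passed on rescaled FPM. The count of higher genes was 4 without PBS 3 or LPA 2, and that of lower genes was 3 without LPA 3. VCAM1, SELE and SELP, which endothelium and stroma make, are not listed in the table.

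Of 13 tested chemoattractant receptors outside the members, S1PR3 alone was higher, 1 was lower and 11 did not pass (median log2 fold change 0.23), against 0 higher and 1 lower on rescaled FPM. For all tested genes the shares were 22.5% higher and 4.49% lower, with 19.2% passing on rescaled FPM. CCR7, which guides cells to lymph nodes, fell to 9.83, 12.4 and 14.7 FPM with LPA, against 21.5, 23.7 and 19.1 FPM with PBS (log2 fold change -0.77, limma adjusted p = 1.05e-05). The groups did not overlap and the call held on rescaled FPM at -0.90. CCR3, which lies next to CCR1, was at 3.42 ± 0.292 FPM with LPA and 2.05 ± 0.292 FPM with PBS and did not pass (log2 fold change 0.54, limma adjusted p = 0.0579). CCR2, the next gene, averaged 65.1 FPM with LPA and 58.3 FPM with PBS and did not pass either. The count of higher receptors was 0 without PBS 1, LPA 2 or LPA 3, 2 without LPA 1 and 3 without PBS 2.

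Genes that carry or end CXCR4 and S1PR1 signalling, including enzymes that make or break down sphingosine 1-phosphate, were mixed. Of 28 tested, 8 were higher, 1 lower and 19 did not pass (median log2 fold change 0.17). Among all tested genes, 22.5% were higher and 4.49% lower. On rescaled FPM 3 were higher and 2 lower, with a median of 0.03. RGS1, which dampens G protein signalling from chemokine receptors, fell to 13.2 ± 1.14 FPM with LPA, against 22.7 ± 2.25 FPM with PBS (log2 fold change -0.74, limma adjusted p = 5.74e-06), and held on rescaled FPM. CORO1A, an actin regulator of leukocytes, had 97.7 ± 14.3 FPM with LPA and 72.9 ± 4.46 FPM with PBS (log2 fold change 0.41), and the GTPase RHOA had 263 ± 11.7 FPM with LPA and 216 ± 11.1 FPM with PBS (log2 fold change 0.28). Both passed on rescaled FPM, RHOA at 0.14, and the RHOA call was lost with upper-quartile scaling, edgeR and DESeq2, at 0.13, 0.14 and 0.14. The count of higher genes was 13 without PBS 2 and 5 without LPA 3.

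Among 20 other adhesion molecules, 3 were higher, 1 lower and 16 did not pass (median log2 fold change 0.08), against 2 higher and 1 lower on rescaled FPM. The shares of all tested genes were 22.5% higher and 4.49% lower, with 19.2% passing on rescaled FPM. The plasma cell proteoglycan SDC1 (CD138) stood at 114, 109 and 132 FPM with LPA, against 62.0, 60.4 and 59.6 FPM with PBS (log2 fold change 0.95, limma adjusted p = 1.94e-14). BSG, which brings lactate transporters to the cell surface, had 231 ± 13.2 FPM with LPA and 177 ± 4.30 FPM with PBS (log2 fold change 0.38). SDC4, another syndecan, had 9.31 ± 1.28 FPM with LPA and 13.6 ± 1.23 FPM with PBS (log2 fold change -0.50), and its call was lost without LPA 2 at -0.41, leaving 0 lower. The count of higher genes was 2 without LPA 1 or LPA 2. Of 10 proteases and inhibitors of receptor shedding, 4 were higher, 0 lower and 6 did not pass (median log2 fold change 0.05). On rescaled FPM 1 was higher and 2 were lower, ADAM15 at -0.33 and ADAM17 at -0.22, both named after their values were seen. TIMP2, a metalloprotease inhibitor, had 121 ± 6.35 FPM with LPA and 91.3 ± 4.89 FPM with PBS (log2 fold change 0.40), and held on rescaled FPM. The proteases ADAM9 and ADAM10 rose by 0.28 and 0.23, and neither passed on rescaled FPM. The ADAM10 call was also lost without PBS 1, PBS 3 or LPA 3, at 0.19, 0.21 and 0.20, and the count of higher genes was 2 without PBS 3 or LPA 3.

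**Figure D4:**
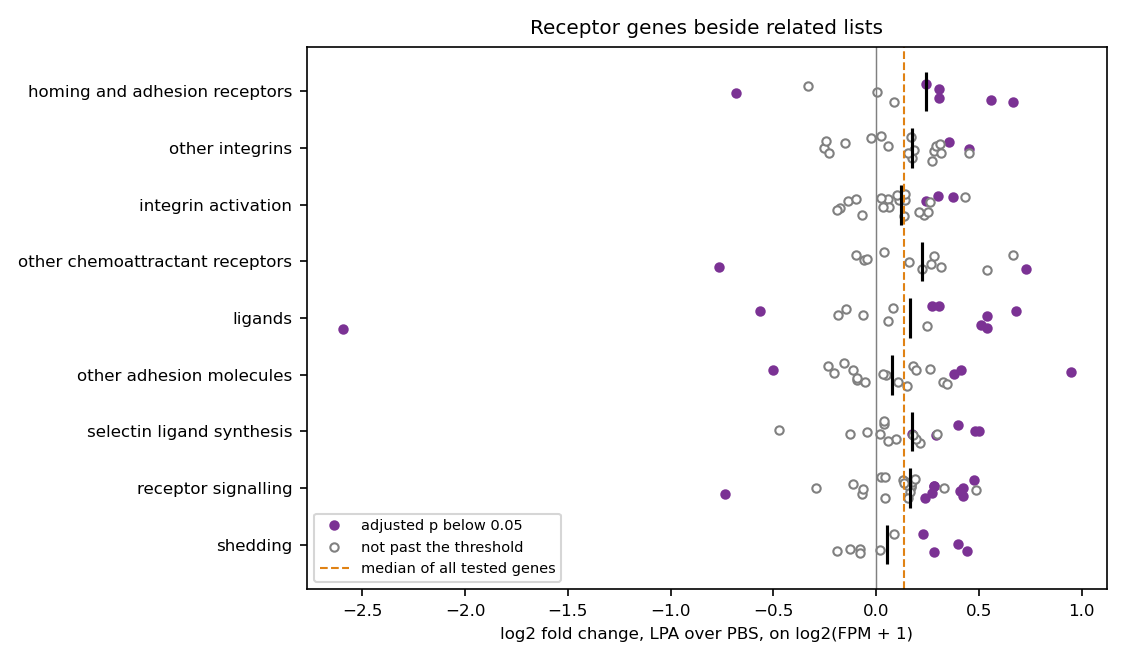
Log2 fold changes of LPA over PBS on log2(FPM + 1) (x axis) for the tested genes of each list (points, placed at random heights within a row), filled where the limma adjusted p was below 0.05. Black bars are list medians, and the dashed line is the median of all tested genes, 0.13.

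The genes most like each tested member were taken by Pearson correlation of log2(FPM + 1) over the 6 libraries, as a description only. With so few libraries many genes come close to 1. For CXCR4, 1370 genes reached 0.95, among them IRF4, a transcription factor of plasma cells, at 0.998. For S1PR1 the closest were SLC35B4 and NDC1, both at 0.999, for CD44 RAB2B at 0.998 and ATP6AP2 at 0.997, and for ITGA4 TMED3 at 0.999 and DDIAS at 0.999. For ICAM1 they were DDIT3 at 0.997 and INHBE at 0.996. Members whose groups overlapped had fewer close genes, 75 at 0.95 for ITGB1, led by DNAJC2 and KIF3A, 35 for CCR1, led by FGGY-DT and COL9A3, 27 for SELPLG, led by FPR3 and HAS3, and 8 for ITGAL, led by ANGEL2 and SULT1A4. All of these libraries share the treatment, the depth and the median shift of their group.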

How the data were processed

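Total RNA came from cells collected after culture, per the labels. The deposited values are FPM, the CPM unit as the authors computed it for fragments, in 24 lane columns. No aligner, counter, strand setting or multi-mapping rule is named in those labels. A mouse build, mm10, appears in the submitters' processing notes although the gene identifiers are human, so no coordinates are given beyond the RefSeq promoters (GRCh38.p14). Among 19345 gene rows, 187 repeats of an identifier, equal in every value, were dropped, as was 1 blank row. Within 0.02 reads, 100% of values were whole reads, and each listed gene had at least 10 reads in all.

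Lanes were averaged per library. The tested genes reached 1 FPM or more in 3 or more of the 6 libraries. They were fitted on log2(FPM + 1) with limma 3.58.1 (trend, robust, two-sided, Benjamini-Hochberg adjustment over all of them), a step checked on simulated counts. The simulated counts had no median shift and no outlying library, so the check does not cover these features. The log2(FPM + 1) scale compresses fold changes of low genes. Intervals are limma's 95% intervals. On the recovered reads, edgeR 4.0.16 (quasi-likelihood) and DESeq2 1.42.0 were alternatives, beside other pseudocounts, filters, scalings, a single prior variance, single lanes and libraries left out. Members and lists were chosen with earlier results of these data known. Named genes are the members, the 3 tested genes of each list with the smallest p, and the 2 genes most correlated with each tested member; others are said to be chosen later or belong to a member's family or ligands. A few genes that this rule or a list names are not reported here.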

Additional observations from a re-analysis of the deposited data

How the results depend on the processing

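Over 20 alternatives, CXCR4 and ICAM1 kept their direction and call in all, with log2 fold changes of 0.51 to 0.71 and -0.84 to -0.61. The range was 0.15 to 0.39 for CD44, 0.37 to 0.77 for S1PR1, 0.09 to 0.34 for ITGA4 and 0.15 to 0.54 for ITGB1. With 1 prior variance for all genes, the limma adjusted p of CXCR4 was 0.0138, against 2.97e-10 in the main fit. That of ICAM1 was 0.0118, against 3.2e-13, so the very small p-values depend on how variance is shared across genes. The count of members called higher was 3 with median-of-ratios or upper-quartile scaling, edgeR, DESeq2 and lane 2, 3 or 4 alone, 2 with 1 prior variance, and 3 to 5 without single libraries. That of members called lower was 3 with either scaling, 2 with edgeR, and 1 to 2 without single libraries. ITGAL was at -0.048 (median-of-ratios), -0.059 (upper quartile), -0.043 (edgeR), -0.045 (DESeq2) and -0.12 (lane 3), and at -0.0235 to 0.144 without single libraries. SELPLG was at -0.14 (median-of-ratios), -0.15 (upper quartile), -0.14 (edgeR), -0.14 (DESeq2) and -0.0090 (lane 3), and at -0.0375 to 0.0297 without single libraries. CCR1 was at 0.0069 on lane 4 alone. The scalings centre the median gene, which by construction moves values down. The cause of the other changes was not tested. All genes called higher and lower were 1633 and 1497 with median-of-ratios scaling, 1487 and 1597 with upper-quartile scaling, 1559 and 1528 by edgeR, 801 and 943 by DESeq2 and 1566 and 473 with 1 prior variance. They were 1269 and 290, 1310 and 298, 1226 and 289, and 1239 and 267 on lanes 1 to 4 alone, and 2463 to 4487 and 543 to 714 without single libraries. Same-numbered libraries did not deviate together (correlations -0.01, -0.04 and -0.05). Such low correlations cannot show that the libraries were unpaired. With the replicate block, 3339 genes were higher and 720 lower. By DESeq2 the calls of ITGB7 and ITGB1BP1 were also lost, at 0.32 and 0.24. Depth limits ITGB2, which was not tested at 3 to 8 reads.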
